A study of Mus musculus with 12 samples.

Results

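The set described here is 28 genes known as targets of the epithelial splicing regulatory proteins (ESRPs), chosen by name as all transcript rows of the deposited comparison table that carry a listed gene symbol. They gave 85 of the 28644 transcript rows and 28 of the 22869 genes in the table. RNA was sequenced from whole cochlear epithelium, the lining of the hearing organ, dissected by hand from C57BL/6 mouse embryos at embryonic day 16.5 and freed of mesenchyme with collagenase. There were 3 control embryos, wild-type for Esrp1 (Esrp1+/+), and 3 knockout embryos (Esrp1-/-). Both cochleae of an embryo were pooled, each embryo gave 2 libraries, and the individual embryo was the biological replicate. The labels name no other allele or agent, and they do not say which part of Esrp1 the deletion removed.

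ESRP1 and its paralogue ESRP2 are RNA-binding proteins of epithelial cells that bind G- and U-rich elements in or beside alternative exons. Depending on the position of the element, they favour inclusion or skipping of the exon, so that one gene yields an epithelial and a mesenchymal form of its protein. The listed genes act in cell adhesion and polarity, actin control, vesicle traffic and signalling. Loss of ESRP function is known chiefly to change the exons of such messages and not their amount, so the total level and the exon content of each gene are given apart.

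The table counts reads per RefSeq transcript. For each gene, the row with the highest read sum was taken as its main row and gives its total level. Of the 28 genes, 7 had a single row (Arhgef11, Scrib, Nf2, Kif13a, Dnm2, Fnip1 and Uap1), and these show no exon choice here. The other 21 genes had 57 further rows, up to 7 beside the main row in Tcf7l2. A read on shared exons is counted in every row of its gene. Subtracting a further row from the main row leaves the reads on the exons by which the rows differ, called net reads below, and any reads found just in the further row lower that number.

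The exons on which most of the results turn are shown first, on the coding strand in the 5′ to 3′ direction. Genes are on GRCm38 (mm10), with sequences read from the GENCODE M21 transcripts linked to the RefSeq rows. Capitals mark GGTGG, the DNA form of a G- and U-rich sequence of the kind that ESRPs bind. Cd44 encodes the hyaluronan receptor, and its variable exons lengthen the extracellular stem. The exons shown are the last 3 of its 10 variable exons, those of the epithelial form, at chr2:102834234-102834335 (102 bases), chr2:102832483-102832572 (90 bases) and chr2:102831330-102831536 (207 bases), on the minus strand.
Cd44, 102 bases: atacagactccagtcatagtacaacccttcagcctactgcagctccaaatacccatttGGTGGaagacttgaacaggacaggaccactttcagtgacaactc
Cd44, 90 bases: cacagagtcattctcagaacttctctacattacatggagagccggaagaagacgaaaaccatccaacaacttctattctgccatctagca
Cd44, 207 bases: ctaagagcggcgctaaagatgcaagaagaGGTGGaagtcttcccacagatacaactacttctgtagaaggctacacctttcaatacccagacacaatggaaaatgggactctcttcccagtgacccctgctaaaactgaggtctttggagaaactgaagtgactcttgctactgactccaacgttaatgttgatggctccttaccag
Ctnnd1 encodes a catenin that binds the juxtamembrane tail of cadherins, and its exon at chr2:84624270-84624558 (minus strand, 289 bases) holds the start codon of the long form. The 195 coding bases of that exon are shown.
Ctnnd1, coding bases of the 289-base exon: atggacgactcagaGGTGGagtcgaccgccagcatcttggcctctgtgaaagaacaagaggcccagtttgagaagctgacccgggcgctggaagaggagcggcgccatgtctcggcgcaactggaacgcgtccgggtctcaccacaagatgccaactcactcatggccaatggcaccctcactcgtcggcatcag
Arhgap17 encodes a GTPase-activating protein of small GTPases. Its 234-base exon lies at chr7:123294472-123294705 on the minus strand.
Arhgap17, 234 bases: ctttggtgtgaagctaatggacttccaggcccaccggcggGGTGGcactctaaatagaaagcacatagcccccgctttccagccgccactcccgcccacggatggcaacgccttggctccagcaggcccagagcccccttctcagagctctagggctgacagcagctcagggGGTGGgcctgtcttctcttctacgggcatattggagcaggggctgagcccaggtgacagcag
Nfya encodes the DNA-contacting subunit of the transcription factor NF-Y, and its 87-base exon lies at chr17:48398982-48399068 on the minus strand. Slk encodes a kinase of the cytoskeleton, and its 93-base exon lies at chr19:47627648-47627740 on the plus strand.
Nfya, 87 bases: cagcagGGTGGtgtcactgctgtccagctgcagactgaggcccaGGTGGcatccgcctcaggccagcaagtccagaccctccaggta
Slk, 93 bases: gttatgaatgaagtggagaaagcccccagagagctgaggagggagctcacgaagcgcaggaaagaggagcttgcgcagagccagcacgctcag
Enah encodes an actin regulator of the Ena/VASP family. Its 63-base exon at chr1:181911597-181911659 (minus strand) is the classical epithelial exon of this gene, and it is shown because no Enah row of the table holds it.
Enah, 63 bases: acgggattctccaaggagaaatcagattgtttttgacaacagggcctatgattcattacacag

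GGTGG was searched on both strands. It stood once on the coding strand in the Cd44 exons of 102 and 207 bases and in the coding bases of the Ctnnd1 exon, and in 2 places each in the Arhgap17 and Nfya exons. The Cd44 exon of 90 bases, the Slk exon and the Enah exon did not hold these letters on the coding strand. Among exons of all genes, the motif stood on the coding strand in 10.8% of those of 76 to 100 bases, in 16.0% of those of 101 to 150, in 23.9% of those of 151 to 220 and in 31.7% of those of 221 to 300 bases. On the opposite strand it stood once in the Arhgap17 exon, where 36.2% of exons of that length class hold it, and not in the other exons shown. A match describes the letters only.

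Esrp1 itself, the deleted gene, measured 197, 102 and 118 CPM (read counts scaled to library size by TMM) in the controls and 27.2, 34.3 and 39.1 CPM in the knockouts, so the groups did not overlap. It fell by 2.05 ± 0.26 on the log2 scale (SE, n = 3 each, adjusted p = 0.0354, edgeR's quasi-likelihood test). The adjusted p rose to between 0.122 and 0.158 when control 3 or any of knockouts 1, 2 and 3 was left out. Its paralogue Esrp2 averaged 13.3 ± 4.36 CPM over controls and 15.6 ± 2.89 CPM over knockouts (mean ± SD of 3 embryos each, log2 fold change 0.23, adjusted p = 0.994, edgeR). Each embryo had between 12547301 and 21568516 reads on genes. Epithelial markers were present in every embryo (16 of 16 genes tested, summed level 1354 to 2632 CPM in controls and 1789 to 2266 CPM in knockouts). Mesenchymal markers were present too (16 of 16, summed 3332 to 4868 CPM in controls and 4680 to 4804 CPM in knockouts), and in none of the marker lists was a gene at 0 in all embryos. The 16 cochlear epithelium markers summed to 7350 to 13353 CPM in controls and 13985 to 17921 CPM in knockouts, without overlap. Of these, 8 had positive log2 fold changes, and the median over the 16 was -0.018. The higher sum was therefore not a rise in most of these genes. Epyc alone passed the test (-1.47 ± 0.15, SE, n = 3 each, adjusted p = 0.0144, edgeR). Among single genes tested, 9.84% did not overlap between groups, and no such share was measured for sums. The part of the difference in sums in the values below was not tested. Knockouts 2 and 3 carried the Y-linked transcript Ddx3y (94.97 and 81.9 CPM) and 0.268 and 0.200 CPM of Xist, whereas the other 4 embryos had Xist at 1098 to 1808 CPM. The immediate early gene Fos was high in control 1 (153 CPM) and knockout 1 (64.6 CPM), while the remaining 4 embryos had 1.00 to 7.27 CPM. Because these are bulk samples, fewer cells of a type and less RNA per cell cannot be told apart.

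The total levels of the listed genes did not pass the test. All 28 genes passed the filter on low counts, and 0 of 28 passed an adjusted p of 0.05 in edgeR's quasi-likelihood test, against 22 of all 14717 genes tested (0.149%). At an unadjusted p under 0.05 there was 1, Cd44, against 4.77% of all genes. DESeq2 also called 0 of the 28. Cd44 was the 1 gene whose embryos did not overlap between groups, where 9.84% of all genes did not. Log2 fold changes were positive in 8 genes and negative in 20, with a median of -0.04 (0.00 over all genes). Their median size was 0.0843, against 0.134 over all genes. Apart from Cd44, the values ran from -0.20 to 0.17, with standard errors of 0.11 to 0.22.

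**Figure D1:**
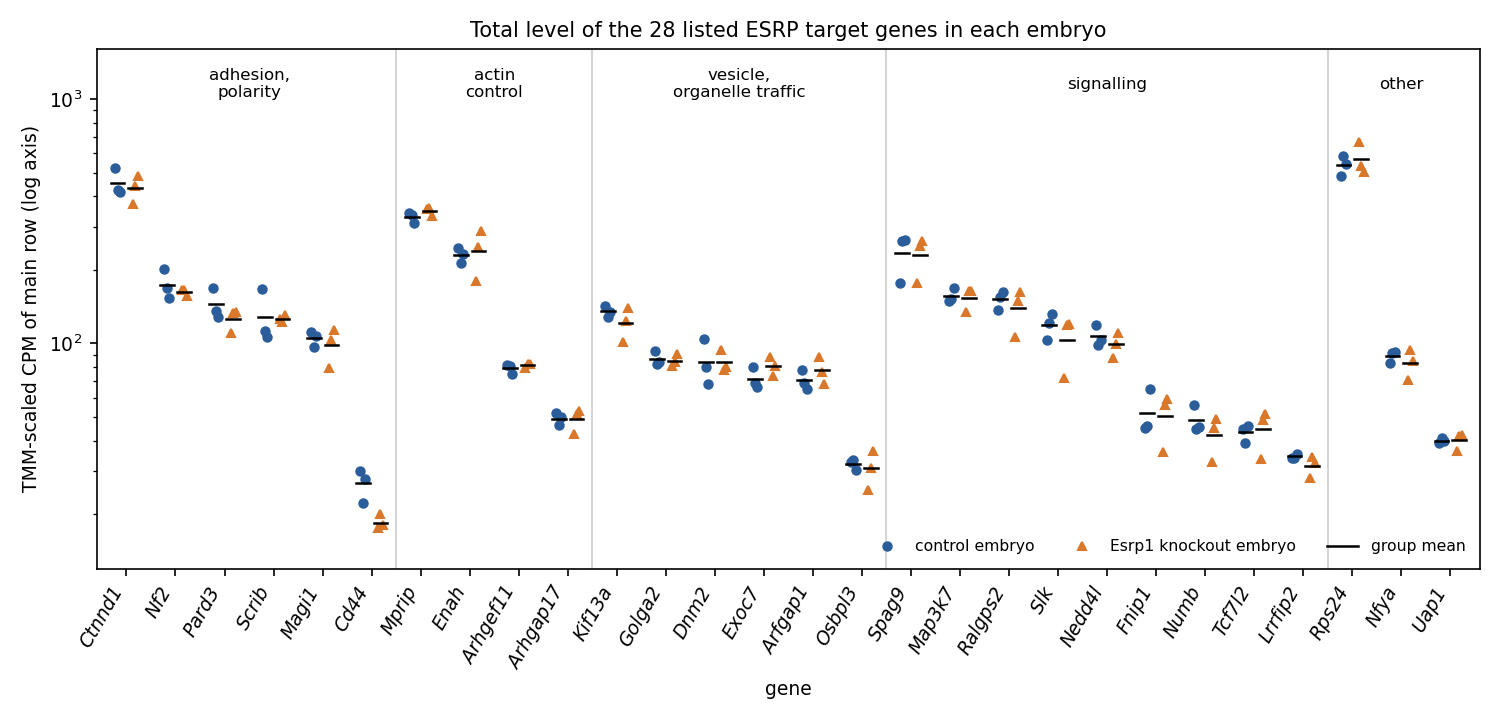
Total level of each of the 28 listed genes in each embryo, as TMM-scaled CPM of its main row on a log axis, ordered by role and then by control mean. Circles are the 3 control embryos, triangles the 3 Esrp1 knockout embryos and bars the group means; Cd44 is the gene whose groups do not overlap.

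Among the 6 adhesion and polarity genes, Cd44 had the lowest level and the largest difference. It measured 30.1, 22.2 and 27.97 CPM in the controls and 17.5, 19.97 and 18.02 CPM in the knockouts, so that each knockout embryo lay below each control embryo. The log2 fold change was -0.53 ± 0.16 (SE, n = 3 each, unadjusted p = 0.0099, adjusted p = 0.570, edgeR). Its adjusted p ranged from 0.18 to 1.00 over the alternative settings, and the sign was negative in each of them. Ctnnd1 measured 522, 426 and 417 CPM in controls and 373, 440 and 485 CPM in knockouts. Its groups overlapped, and the order of the 2 group means turned when control 1 or knockout 1 was left out. Nf2, which encodes the membrane-cytoskeleton linker merlin, measured 201, 168 and 153 CPM in controls and 165, 165 and 156 CPM in knockouts. Control 1 was the highest embryo, and without it the log2 fold change was 0.011. Scrib and Pard3, which encode polarity scaffolds, and Magi1, a junction scaffold, had overlapping groups as well. All 6 genes of this role had negative log2 fold changes, none past the test.

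The 4 genes of actin control had log2 fold changes from -0.01 to 0.09. Enah measured 247, 213 and 232 CPM in controls and 181, 249 and 288 CPM in knockouts, with the knockouts spread on both sides of the controls. Mprip, which targets myosin phosphatase to actin, measured 341, 335 and 310 CPM in controls and 356, 359 and 334 CPM in knockouts. Knockout 3 lay below 2 of the controls, so the groups overlapped. Arhgef11, a guanine nucleotide exchange factor, and Arhgap17 lay within 0.04 of no change on the log2 scale.

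The 6 genes of vesicle and organelle traffic had log2 fold changes from -0.15 to 0.17, and the groups overlapped in each, the kinesin gene Kif13a and the exocyst subunit gene Exoc7 included. Osbpl3, which encodes an oxysterol-binding protein homologue, measured 32.8, 33.4 and 30.3 CPM in controls and 25.2, 31.0 and 36.2 CPM in knockouts. The Golgi genes Arfgap1 and Golga2 and the dynamin gene Dnm2 overlapped between groups. Of the 9 signalling genes, 8 had negative log2 fold changes, the lowest -0.20, and the groups overlapped in each. Tcf7l2, a transcription factor of Wnt signalling, measured 44.8, 39.0 and 46.0 CPM in controls and 33.5, 48.9 and 51.4 CPM in knockouts. Lrrfip2 measured 34.0, 34.0 and 35.5 CPM in controls and 28.1, 34.4 and 32.4 CPM in knockouts. The folliculin partner gene Fnip1 measured 45.2, 46.1 and 65.2 CPM in controls and 36.1, 55.9 and 59.4 CPM in knockouts. Knockout 1 was the lowest of the 6 embryos in 8 of the 9 signalling genes, all but Spag9, and in 19 of the 28 listed genes, and it was also the embryo with the fewest reads. Values without knockout 1 are given for genes of the highest and lowest FPKM. The log2 fold change turned positive for Ctnnd1 (0.013), Fnip1 (0.14) and Osbpl3 (0.053). It stayed negative for Cd44 (-0.50), Nf2 (-0.13) and Lrrfip2 (-0.056), and turned negative for Rps24 (-0.065). Whether the read number of knockout 1 had a part in the negative signs was not tested.

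Per length, the highest of the 28 in the deposited FPKM values was Rps24, a subunit of the small ribosomal subunit (276 ± 44.4 FPKM in controls and 299 ± 66.5 FPKM in knockouts, SD, n = 3 each). Ctnnd1 (33.8 ± 1.85 and 32.7 ± 2.15 FPKM), Enah (22.2 ± 0.84 and 23.3 ± 3.83 FPKM), Mprip (16.7 ± 1.14 and 18.2 ± 1.77 FPKM) and Nf2 (15.0 ± 1.18 and 14.3 ± 1.42 FPKM) followed. The lowest were Cd44 (1.92 ± 0.22 and 1.37 ± 0.12 FPKM), Osbpl3 (1.94 ± 0.16 and 1.88 ± 0.20 FPKM) and Fnip1 (3.73 ± 0.94 and 3.65 ± 0.74 FPKM). Lrrfip2 and Tcf7l2 lay between 4.41 and 4.86 FPKM in both groups. Cd44 and Osbpl3 differed in the controls by less than their spread, so their order is not settled. Reads per FPKM and base were 1.0876 times as high for genes of the minus strand as for those of the plus strand, so neighbours closer than that cannot be ordered between strands.

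The exon content was first compared as row shares. A pair of a main and a further row was tested where its net reads came to at least 60 in all and were negative in none of the embryos, which held for 27 of the 57 further rows, in 12 genes. The other 30 all had too few net reads, and 3 of them also had a negative difference in an embryo. In limma's test of the log2 odds, 0 of the 27 pairs passed an adjusted p of 0.05, against 1 of all 1774 pairs tested (0.0564%). At an unadjusted p under 0.05 there were 2, in Cd44 and Ctnnd1, where 4.57% of all pairs reached it. The adjusted p was at least 0.937 for each of the 27. The groups did not overlap in 3 pairs, of Cd44, Ctnnd1 and Arhgap17, where 9.47% of all pairs did not. The median size of the difference between group means was 0.425 percentage points of the main row for these 27 pairs and 0.847 over all pairs. The largest was 2.54 points, in Cd44.

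**Figure D2:**
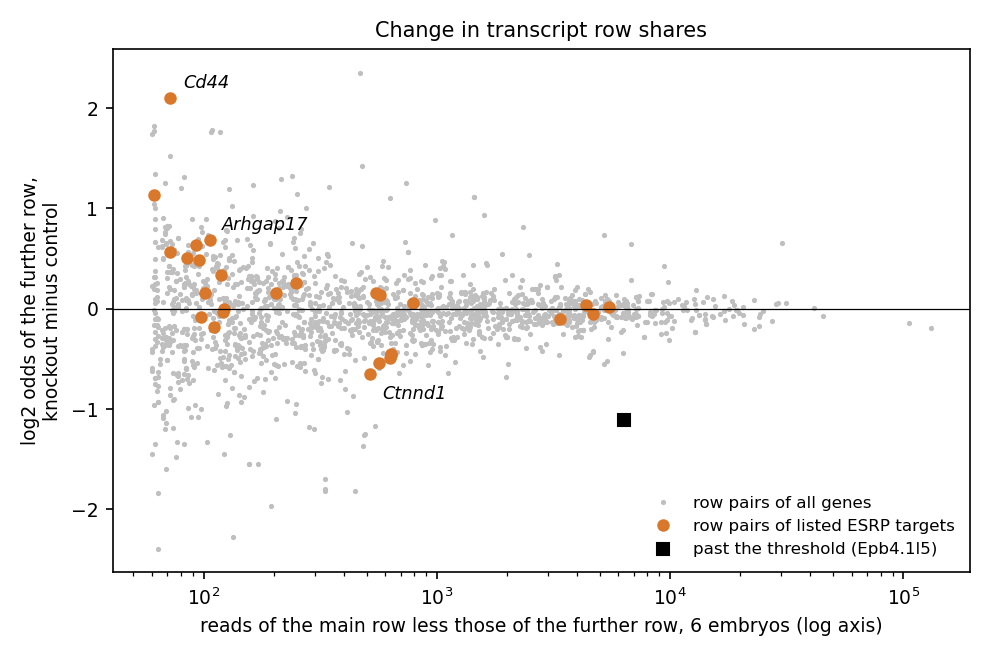
Difference between knockout and control in the log2 odds of a further transcript row (vertical axis), against the net reads over 6 embryos (horizontal log axis), for all 1774 row pairs tested. Grey dots are all pairs, orange circles the 27 pairs of listed genes and the black square the 1 pair past the threshold, in Epb4.1l5, which is not a listed gene; the listed pair of Cd44, which rests on 72 net reads, lies near the upper edge of the cloud.

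The Cd44 main row (NM_009851) holds all 10 variable exons, and row NM_001039151 holds none of them. The 10 exons had 17, 16 and 27 net reads in the controls and 7, 5 and 0 in the knockouts. As a share of the main row this was 3.54%, 3.27% and 5.20% in controls and 3.04%, 1.34% and 0% in knockouts (0 of 270 reads in knockout 3, where a limit of 3 reads allows up to 1.11%). All knockouts lay below all controls, though knockout 1 and control 2 differed by less than the width of either exact binomial interval. Summed over embryos, the share was 60 of 1489 reads (4.03%, 95% exact binomial interval 3.09% to 5.16%) in controls and 12 of 872 reads (1.38%, 0.71% to 2.39%) in knockouts. These intervals and limits cover counting error only. The log2 odds of the row without the exons differed by 2.10 ± 0.92 (SE, n = 3 each, unadjusted p = 0.0469, adjusted p = 0.937, limma). The value was 0.90 without knockout 3 and between 2.41 and 2.99 without knockout 2 or knockout 1. It was 0.15 with the level of Xist as a covariate and 0.32 with knockout 1 as the only knockout. These 2 settings are not separate checks. Xist was near 0 in knockouts 2 and 3 alone, so the fit with Xist rests largely on knockout 1 against the controls. The value was 1.34 when 2 in place of 0.5 was added to the reads. Leaving out any control took the pair below 60 net reads, and it was then not tested.

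The 6 rows of Cd44 are nested, which divides the variable exons into blocks. The first 8 variable exons had 9, 8 and 13 net reads in controls and 7, 3 and 0 in knockouts, and the groups overlapped as shares (2.01% and 1.15% summed). The last 2, of 90 and 207 bases, had 8, 8 and 14 net reads in controls and 0, 2 and 0 in knockouts. Summed, that was 30 of 1459 reads (2.06%, 95% exact binomial interval 1.39% to 2.92%) against 2 of 862 reads (0.232%, 0.028% to 0.836%), and all controls lay above all knockouts. With the exon of 102 bases added, the last 3 exons had 10, 12 and 18 net reads against 2, 2 and 0 (2.72% and 0.463%). The Cd44 blocks share reads with each other, so they are not separate observations. They were compared after their values were seen, among 52 row pairs described below, and are given without a test.

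**Figure D3:**
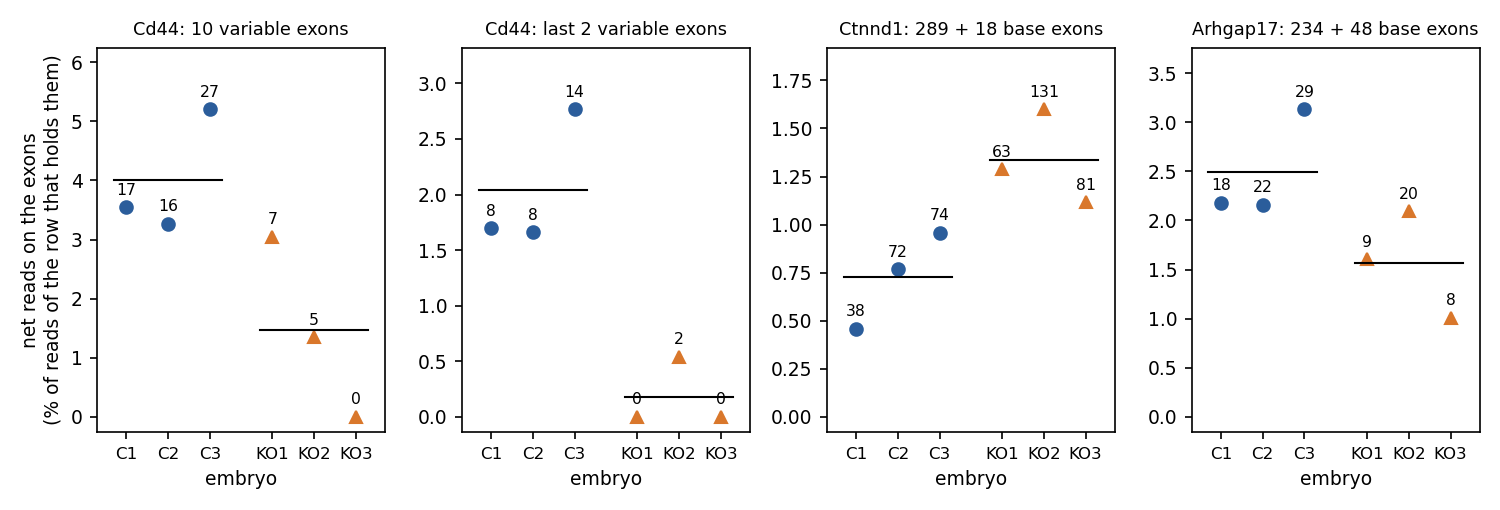
Net reads on 4 sets of exons as a percentage of the reads of the row that holds them, in each embryo; the number beside a point is the net read count, C1 to C3 are the controls (circles), KO1 to KO3 the knockouts (triangles) and bars the means of the embryos. Controls lie above knockouts in both Cd44 panels and in Arhgap17 and below them in Ctnnd1, with the highest knockout of Arhgap17 (2.09%) close to the lowest control (2.16%); each panel has its own scale.

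In Ctnnd1 the difference ran the other way. The row that lacks exons of 118, 289 and 18 bases (NM_001085449) had 59, 81 and 88 net reads in controls and 63, 136 and 90 in knockouts. That was 0.709%, 0.862% and 1.14% of the main row in controls and 1.29%, 1.66% and 1.24% in knockouts, with no overlap. The log2 odds of the shorter row differed by -0.65 ± 0.23 (SE, n = 3 each, unadjusted p = 0.0212, adjusted p = 0.937, limma), and from -0.83 to -0.49 when single embryos were left out. Set against the row that differs by the 289- and 18-base exons alone, the net reads were 38, 72 and 74 in controls and 63, 131 and 81 in knockouts. As shares these were 0.458%, 0.767% and 0.958% against 1.29%, 1.60% and 1.12%, or 184 of 25414 reads against 275 of 20334 (0.724% and 1.35%). So these 2 exons, the first of which carries the start codon of the long form, took a larger share of the row's reads in each knockout than in any control. The noncoding exon of 118 bases had 21, 9 and 14 net reads against 0, 5 and 9, and these groups overlapped.

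The long form of Ctnnd1 is known as the mesenchymal form. The summed mesenchymal markers were 3332, 4421 and 4868 CPM in controls 1, 2 and 3, in the same order as the 3 control shares. In knockouts 1, 2 and 3 they were 4687, 4680 and 4804 CPM, in the reverse order of the shares. These knockout sums lay within the range of the controls, while each knockout share lay above every control share. The part of the markers in the difference was not tested. The epithelial markers had their highest sum in control 1 (2632 CPM, against 1354 and 1585 CPM in the other controls), while the Cd44 exon share was highest in control 3.

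In Arhgap17 the exons of 234 and 48 bases together had 18, 22 and 29 net reads in controls and 9, 20 and 8 in knockouts. The shares were 2.18%, 2.16% and 3.13% against 1.61%, 2.09% and 1.01%. The groups did not overlap, but control 2 and knockout 2 lay next to each other. The log2 odds of the row without both exons differed by 0.68 ± 0.40 (SE, n = 3 each, unadjusted p = 0.124, adjusted p = 0.937, limma), and by 0.40 without knockout 3. The 234-base exon alone had 14, 19 and 27 net reads against 9, 19 and 8, and its groups overlapped. The 48-base exon had 4, 3 and 2 net reads against 0, 1 and 0, a total of 10 reads.

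The other exons of the set had few reads. In 52 row pairs of 17 genes, the internal exons of the rows differed by whole exons alone, and 27 of these pairs, in 15 genes, included the main row. The first and last exons of the linked transcripts were not compared, and some differ. Pairs were kept where the length difference implied by reads over FPKM lay within 10 bases of these exons. In the controls, these 27 blocks had net reads of 0.0205% to 4.03% of the main row, with a median of 0.347%. The blocks made up a median of 3.304% of the length of the row, and 27 of 27 had a smaller share of the reads than of the length. Lone internal exons of all genes were also low in net reads per base up to 200 bases. Their medians were 8.2% of the density of the row up to 50 bases, 11.1% up to 100 and 7.5% up to 200. The median was 71.5% from 200 to 300 bases and 26.9% above 300, with 2 pairs in each class. Up to 200 bases, a low share was therefore not particular to the listed genes. For longer exons the pairs are too few to compare. Whether a read across an exon and its neighbour was counted in both rows is not given in the sources used here, so these shares are not inclusion levels. Net reads were a smaller share in knockouts in 16 of the 27 blocks and a larger share in 11, and the groups did not overlap in 4 (the blocks of Cd44, Ctnnd1 and Arhgap17 above, with 2 from Arhgap17). Over further rows of all genes with at least 1 net read and no negative difference, 8.33% of 3914 did not overlap. Blocks of 1 gene share reads and are not separate observations.

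**Figure D4:**
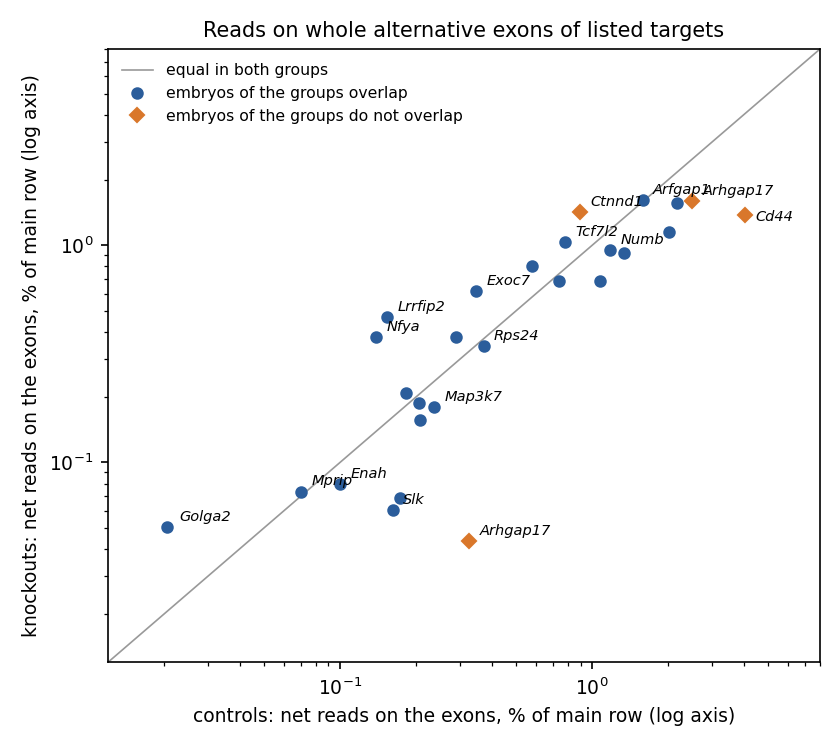
Net reads on whole alternative exons as a percentage of the main row, summed over the 3 control embryos (horizontal log axis) and the 3 knockout embryos (vertical log axis), for 27 exon blocks of 15 listed genes; labels stand at the longest block of each gene and at the 48-base block of Arhgap17. Diamonds are the 4 blocks whose embryos do not overlap between groups, and the line marks equal values; 16 blocks lie below the line and 11 above it.

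Among the signalling genes, the 93-base exon of Slk had 4, 1 and 6 net reads in controls and 1 in each knockout, of 6786 and 4953 reads in all. The 81-base exon of Map3k7, which encodes the kinase TAK1, had 4, 11 and 6 net reads against 1, 10 and 2. Numb had 6, 10 and 16 on its 147-base exon against 4, 8 and 7. The groups of all of these overlapped as shares. The 51-, 73- and 25-base exons of Tcf7l2 together had 5, 5 and 9 net reads against 5, 14 and 3, with knockout 2 the highest. The 45-base exon of Lrrfip2 had 0, 1 and 2 against 0, 7 and 0, so that knockout 2 held all of the reads of its group.

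The 87-base exon of Nfya had 1, 2 and 4 net reads in controls and 1, 7 and 7 in knockouts, or 7 of 5041 reads (0.139%, 95% exact binomial interval 0.056% to 0.286%) and 15 of 3955 reads (0.379%, 0.212% to 0.625%). Knockouts 2 and 3 were above the controls and knockout 1 (0.107%) was among them. The exons of 93 and 39 bases of Exoc7 had 7, 4 and 3 net reads against 3, 10 and 10. Again knockouts 2 and 3, the embryos with Ddx3y, were higher and knockout 1 was among the controls; the part of sex in this was not tested. The 213- and 60-base exons of Arfgap1 were nearly even, with 21, 23 and 19 net reads against 18, 22 and 18 (1.59% and 1.61%). The 18-base exon of Rps24 had 22, 11 and 23 net reads against 20, 24 and 11, of 30703 and 26225 reads. Enah had 7, 2 and 4 on a 12-base exon against 2, 7 and 0, the 66-base exon of Mprip had 4, 3 and 6 against 0, 9 and 3, and the 81-base exon of Golga2 had 3 net reads in all.

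Rows of Pard3, Magi1, Tcf7l2, Enah, Spag9, Nedd4l and Osbpl3 that differ by more than whole internal exons, the transcript ends included, carried more reads. In Pard3 the row with the fewest reads held 60.8%, 60.6% and 61.3% of the main row in controls and 64.0%, 59.5% and 60.3% in knockouts. In Magi1 the corresponding row held 66.5%, 72.5% and 67.8% against 69.9%, 66.5% and 65.8%. In Tcf7l2 it held 85.0%, 81.7% and 80.3% against 82.7%, 82.9% and 83.5%, a narrow range in the knockouts within that of the controls. The groups overlapped in all 3 genes, and the differences between group means were 0.34, -1.53 and 0.67 percentage points. In Spag9, a scaffold of JNK signalling, the row with the fewest reads held 96.9%, 98.4% and 97.9% in controls and 97.7%, 96.4% and 96.7% in knockouts. The Enah row with a different end held 97.8%, 97.2% and 98.0% against 97.8%, 97.1% and 98.6%. In these rows the adjusted p of each pair tested was at least 0.937 (limma).

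For several listed genes, coding internal exons in GENCODE M21 stand in no row of the table, and the counts cannot show them. The 63-base exon of Enah printed above is one. The single row of Arhgef11 lacks exons of 33 and 30 bases, that of Kif13a lacks exons of 105 and 39 bases, and that of Dnm2 lacks 3. Lrrfip2 has 15 such exons, which the values of its 45-base exon above leave out, and Spag9 has 3. Enah has a second one, of 12 bases. Ctnnd1 (87 bases), Nfya (84 bases), Exoc7 (69 bases), Osbpl3 (93 bases), Arfgap1, Tcf7l2, Mprip and Nedd4l have 1 each. These exons were not analysed here.

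In the authors' deposited table, 0 of the 85 rows of the listed genes had an FDR under 0.05, against 222 of 28644 rows in all. The lowest FDR among the 85 in the authors' deposited table was 0.694, for Cd44, whose 6 rows had log2 fold changes of -0.57 to -0.53. An FDR of 1 stood beside 79 of the 85 rows in the authors' deposited table.

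A further 30 genes known to be ESRP-regulated, and other splicing regulators, give the setting of these values. Of the 30, 29 were tested for total level, with 0 past the threshold and 12 positive, and 6 genes had 8 row pairs tested. The 1 pair past the threshold of all 1774 was among these 8. The list was chosen with earlier results of these data known, so this place in it is not a test of the list. It lies in Epb4.1l5, which encodes a FERM domain protein of cell adhesion. Its further row (NM_001113416) held 51.6%, 45.7% and 48.8% of the main row in controls and 29.2%, 30.3% and 32.2% in knockouts. The log2 odds differed by -1.11 ± 0.11 (SE, n = 3 each, adjusted p = 0.00649, limma), and the adjusted p was 0.0864 without knockout 2. Fgfr3 had the smallest adjusted p for total level among the 30 (59.1 ± 18.4 and 34.0 ± 6.73 CPM, SD, n = 3 each, adjusted p = 0.541, edgeR). Of 32 other splicing regulators tested, 0 passed and 6 had positive log2 fold changes. Their smallest adjusted p was 0.994 (edgeR), a value that most of the listed genes also had, so no regulator is singled out by it.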

How the data were processed

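Polyadenylated RNA of 6 embryos was sequenced from directional libraries, 2 per embryo, per the labels' protocols. The authors deposited read counts per RefSeq transcript with 1 column per embryo, not normalised per the file headers. FPKM, scaled by the authors for length and library size, were also deposited. The same table holds log2 fold changes, p-values and FDR of rows that the authors deposited from edgeR, per the file headers. Build mm10 and edgeR stand in the submitters' processing notes. How reads were aligned and counted is not given in the sources used here. Another 14 columns stayed unused.

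Genes (1 main row each) were filtered with filterByExpr (minimum count 10), scaled by TMM and tested with edgeR 4.0.16's quasi-likelihood test (R 4.3.3). Row pairs were tested with limma 3.58.1 on log2 odds (0.5 added to reads, variance trended on read number), needing 60 net reads. The p-values were Benjamini-Hochberg adjusted over all genes or pairs, with a threshold of 0.05. DESeq2 1.42.0 was an alternative. With 3 embryos against 3, an exact permutation test of 1 value cannot go below 0.10, so none is given.

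Exon structures came from GENCODE M21 transcripts. Lengths implied by reads over FPKM lay within 10 bases of the annotated exon in 53 of 56 pairs that differ by 1 internal exon. Each strand had its own scale, adopted after a common scale had fitted fewer. The scale was the median over these same pairs, so the match is not an independent check. On simulated counts, the gene test over 14599 genes found 71 of 100 genes with a 2-fold change and 95 of 100 with a 4-fold change, with 9 false calls. The row test over 1734 pairs found 75 of 100 and 93 of 100, with 7 false calls. Its changes were 2-fold and 4-fold in the odds, in pairs with at least 60 reads on the smaller side. All pairs had the same added spread between embryos, so recovery in pairs that vary more was not measured.

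The members and lists were chosen with earlier results of these data known, and the exon blocks were compared after the table had been seen. Members named with full values were those with a pair past the threshold, those with separated shares at least 5 points apart (0 genes met each of these), and the 5 highest and 5 lowest by FPKM. The pairs of Cd44, Ctnnd1 and Arhgap17 and all exon blocks were picked after their values were seen. Outside the members, Esrp1, Esrp2, Epyc and further ESRP-regulated pairs past the threshold were named. The gene with the smallest adjusted p was named for the further ESRP-regulated genes. For the other splicing regulators the smallest adjusted p was given without a gene.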

Additional observations from a re-analysis of the deposited data

How the results depend on the processing

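The number of genes past the threshold over the whole table was 22, and it ranged from 0 to 30 when single embryos were left out (0 without control 3 or knockout 2). It was 6 with a replicate block, 6 with the level of Xist as a covariate, 159 without both embryos numbered 1, 167 with DESeq2 and 0 without knockouts 2 and 3, a setting added after seeing the data in which knockout 1 is assumed to vary like the controls. The number of row pairs past the threshold was 1, with a range of 0 to 5 when single embryos were left out (5 without control 3, 0 without knockout 2). It was 0 with the replicate block, 9 with Xist as a covariate, 0 without both embryos numbered 1, 8 without knockouts 2 and 3, 0 on the log2 ratio of the rows and 0 with a prior variance without trend. None of these calls was a listed gene: over 364 values for the 28 totals and 376 for the 27 row pairs, 0 passed, with lowest adjusted p-values of 0.0815 (edgeR, Slk with Xist as a covariate) and 0.461 (limma, Spag9 with Xist as a covariate).

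The sign differed from the reported one in 60 of the 364 totals, in 21 genes, all with reported log2 fold changes of at most 0.20 in size, and in 34 of the 376 row pair values. The values below are of the 10 genes named by FPKM, a restriction made after these counts were seen. With Xist as a covariate they ran from -0.60 (Cd44) and -0.56 (Fnip1) to 0.33 (Rps24), with -0.30 for Ctnnd1, -0.31 for Lrrfip2 and -0.38 for Osbpl3. Xist was near 0 in knockouts 2 and 3 alone, so the knockout effect in this fit rests largely on knockout 1. Cd44, Mprip (0.048 to 0.12) and Lrrfip2 (-0.31 to -0.056) kept their sign in every setting run, and the others turned as follows. Without both embryos numbered 1, the log2 fold change was -0.13 for Rps24, 0.12 for Ctnnd1, 0.045 for Fnip1 and 0.065 for Osbpl3. With Xist as a covariate it was -0.38 for Enah and -0.39 for Tcf7l2, and without knockouts 2 and 3 it was -0.36 and -0.37. Leaving out single embryos gave -0.065 to 0.15 for Rps24, -0.17 to 0.035 for Ctnnd1, -0.11 to 0.21 for Enah, -0.19 to 0.011 for Nf2, -0.073 to 0.20 for Tcf7l2, -0.18 to 0.14 for Fnip1 and -0.20 to 0.053 for Osbpl3. The cause was not tested. The adjusted p of Epb4.1l5 was 0.0534 with the replicate block, 0.0945 without both embryos numbered 1, 0.0889 on the log2 ratio and 0.323 without the trend, and that of Esrp1 (0.0354 as reported) was 0.134 with the block, 0.0806 with Xist as a covariate and 0.00967 to 0.158 without single embryos.

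Deviations of same-numbered embryos correlated at 0.08, 0.18 and 0.03, so the numbers were not taken to pair the embryos, and not every embryo correlated best with its own number. The descriptions of same-numbered embryos share a prefix, and the labels do not say what it marks. Exon blocks with under 60 net reads were not tested, and detection below that number was not measured.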
